A study of Mus musculus with 12 samples.

Results

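The ectoplasmic specialization is an actin-rich adhesion junction of the testis. The values below describe 10 genes whose proteins act on actin filaments or belong to cell adhesion complexes: Espn, Eps8, Actr3, Vcl, Zyx, Afdn, Ctnna1, Ctnnb1, Ctnnd1 and Pkp2. They were chosen by name, through every array probe whose accession mapped to the symbol, with Afdn carrying its older name Mllt4 in some annotations. All 10 genes, on 13 of the 30531 probes kept, were among the 25028 genes tested. The arrays profile testis cell fractions of male C57BL/6J mice, with the title of the series naming germ cell adhesion and maturation in mice without TAp73, the isoform class of the p53 relative Trp73 that keeps its transactivation domain. The 4 groups of 3 arrays were Sertoli and germ fractions of 3 mice labelled TAp73 knockout (mouse 120 at 4 months, mice 86 and 72 at 8 months) and of 3 mice labelled control (mouse 99 at 5 months, mice 73 and 74 at 8 months). Both fractions of a mouse came from the same animal, and the titles call control mice 73 and 74 het although their source name is that of a wildtype. No label gives the construct of the knockout, and none says that animals were pooled. In the sentences below the values of 3 arrays follow this order of mice, and a level is log2 of the processed spot signal minus the 75th percentile of its array.

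Sertoli cells are the somatic nurse cells of the seminiferous epithelium, and the ectoplasmic specialization lies inside them, where they meet each other near the base of the tubule and where they grip the head of an elongating spermatid. Packed bundles of actin filaments run there between the plasma membrane and a flattened cistern of endoplasmic reticulum. Bundling proteins such as espin hold the filaments together, the Arp2/3 complex branches them when the junction is remodelled, and the nectin-afadin and cadherin-catenin systems tie them to the membrane.

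Between 64.1% and 78.9% of probes were well above background on the 12 arrays, and the 75th percentile of the processed signal ran from 1355, on the control Sertoli array of mouse 74, to 5350. The correlation across genes, which are no independent replicates, had an r of 0.969 to 0.993 within groups and of 0.508 to 0.597 between germ and Sertoli arrays. Trp73 gave signal well above background on all 3 of its probes on every array labelled knockout. The probe used for the gene stood at -2.91, -2.82 and -2.72 in knockout Sertoli and -1.91, -2.79 and -2.35 in knockout germ fractions, against -3.56, -4.01 and -2.13 in control Sertoli and -4.28, -3.10 and -2.68 in control germ fractions. The second probe stood at -2.04, -1.52 and -1.70 in knockout Sertoli and -2.76, -2.56 and -3.29 in knockout germ fractions, against -9.42, -2.50 and -3.22 in control Sertoli and -9.40, -3.63 and -4.15 in control germ fractions. The last probe stood at -5.43, -5.82 and -5.55 in knockout Sertoli and -3.50, -4.39 and -3.79 in knockout germ fractions, against -8.52, -6.67 and -5.39 in control Sertoli and -8.73, -5.10 and -4.39 in control germ fractions. On the second and last probes both arrays of mouse 99, the control mouse titled wild type, were thus the lowest of their fraction, and on no probe did the knockout arrays of a fraction all lie below its control arrays. On the second probe the knockout arrays of each fraction all lay above its control arrays. That probe was well above background on 2 of 3 control arrays in each fraction, and the last probe on 2 of 3 control germ and 0 of 3 control Sertoli arrays. Which part of the gene was deleted relative to the probes is not given in the sources used here, so these probes do not check the labels, and genotypes are given as labelled. The fractions were also set against marker genes of testis cell types. Of 17 Sertoli markers tested, 5 were called higher, among them Vim, Gata4 and Sox9, and 10 lower in control Sertoli than in control germ fractions. Fshr and Tsx were not well above background on any of the 6 Sertoli arrays. They were kept only through the germ groups, so any calls of theirs as lower are in part built in. The fraction labelled Sertoli is therefore called by its label, with its markers given beside the results.

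On the signals as processed here, all 10 linker genes differed between the Sertoli and the germ fraction in control mice. The genes of the branching complex, of the focal-adhesion type linkers, of the catenins and of the plakophilin, together with Eps8, were higher in the Sertoli fraction, by 4.71-fold (Ctnnb1) to 29.5-fold (Actr3). Espn and Afdn were lower there. With limma and Benjamini-Hochberg adjustment over all genes, 8 were called higher and 2 lower, while 76.4% of all genes tested were called, 39.8% higher and 36.5% lower, so a call here is common. No overlap between the fractions, found for all 10 genes, was likewise found for 75.1% of all genes. Afdn was not well above background on any Sertoli array and was kept for testing only through the germ groups, where it was high. Its call and its lack of overlap are thus in part built in. Under normexp background correction its control difference was 0.43 and it was not called. The median difference was 2.87 over the members and 0.21 over all genes. Under array-median scaling the calls over all genes were 63.2% higher, and under normexp background correction 65.7%, against 52.1% as scaled here.

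**Figure D1:**
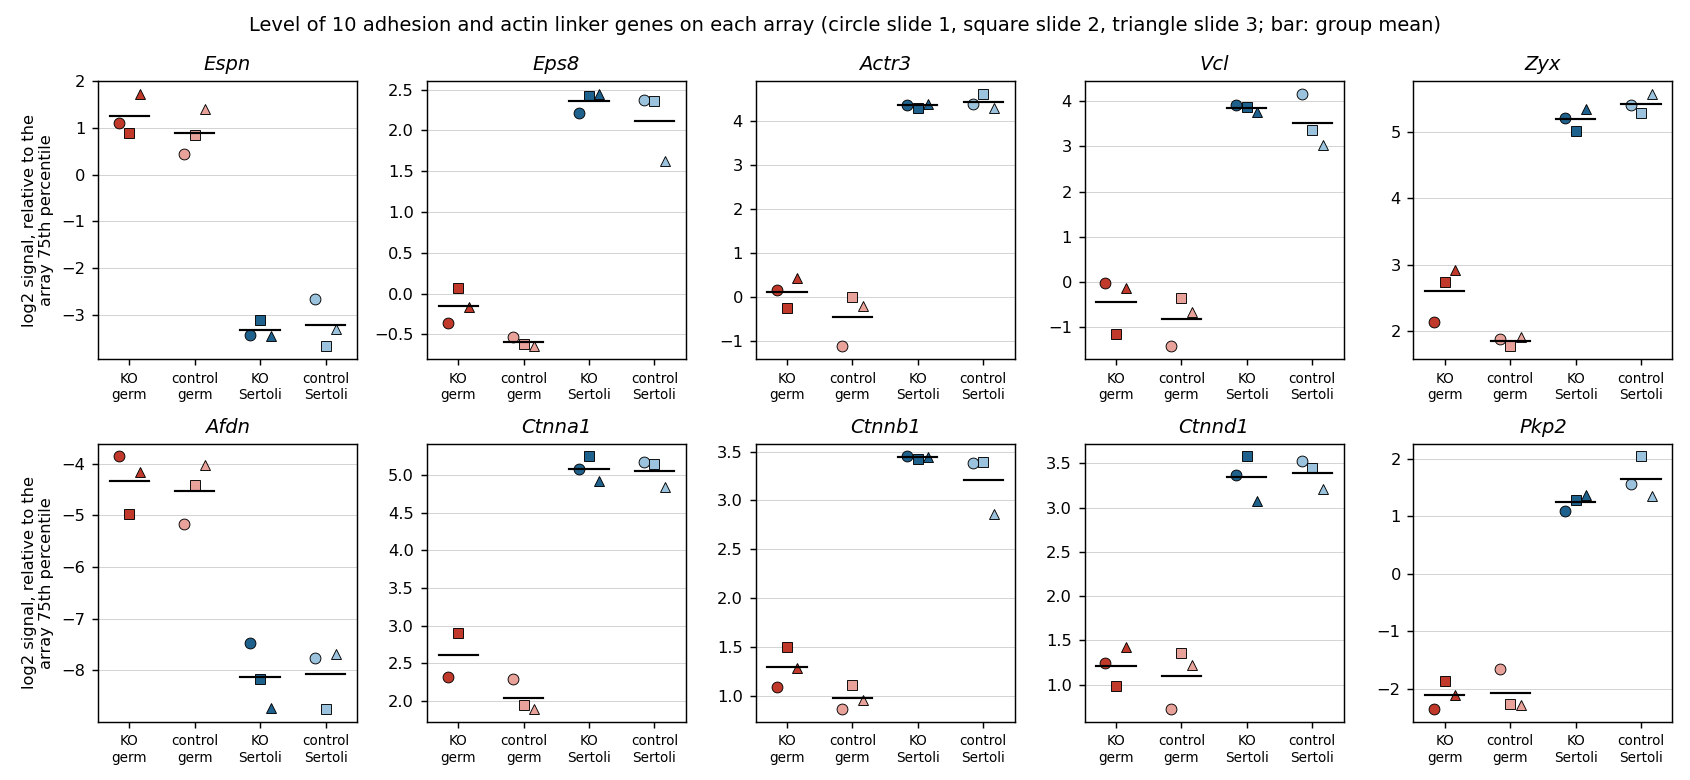
Level of each gene on each array, as log2 signal relative to the 75th percentile of the array, with 1 panel a gene, 1 symbol an array (circle, square and triangle for slides 1, 2 and 3) and a bar at the group mean. For 8 genes all 6 Sertoli arrays lie above all 6 germ arrays, and for Espn and Afdn below them; the Sertoli signals of Afdn are not well above background, and its difference between the control fractions turns to 0.43 under normexp background correction.

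Actr3, the Arp3 subunit of the branching complex, had levels of 4.36, 4.30 and 4.38 in knockout Sertoli and 4.38, 4.61 and 4.28 in control Sertoli fractions, against 0.15, -0.27 and 0.42 in knockout germ and -1.13, -0.013 and -0.22 in control germ fractions. The 6 Sertoli arrays lay within a narrow band far above the germ arrays, and the control germ array of mouse 99 was the lowest. In control mice the difference was 4.88 ± 0.28 (log2, SE, n = 3 per group, adjusted p 3.14e-08), and 4.28% of all genes were at least as far in that direction. Eps8, which caps barbed ends and bundles filaments, had levels of 2.21, 2.43 and 2.45 in knockout Sertoli and 2.37, 2.36 and 1.62 in control Sertoli fractions, against -0.36, 0.075 and -0.17 in knockout germ and -0.53, -0.62 and -0.65 in control germ fractions. The fractions did not overlap, with the control Sertoli array of mouse 74 the lowest of its fraction, and the difference in controls was 2.72 ± 0.22 (adjusted p 5.29e-07). Espn, which encodes the actin bundler espin, ran the other way, with -3.44, -3.12 and -3.47 in knockout Sertoli and -2.66, -3.68 and -3.31 in control Sertoli fractions, against 1.11, 0.89 and 1.73 in knockout germ and 0.45, 0.84 and 1.41 in control germ fractions. Every Sertoli array was below every germ array, and the difference in controls was -4.12 ± 0.33 (17.3-fold lower in the Sertoli fraction, adjusted p 4.57e-07).

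Vcl encodes vinculin and Zyx encodes zyxin, which both sit where actin filaments reach adhesion sites. Vcl stood at 3.91, 3.87 and 3.77 in knockout Sertoli and 4.17, 3.38 and 3.04 in control Sertoli fractions, against -0.019, -1.16 and -0.13 in knockout germ and -1.42, -0.36 and -0.66 in control germ fractions. Its germ arrays spread more than its knockout Sertoli arrays, and the fractions stayed apart by 4.34 ± 0.39 in controls (20.2-fold, adjusted p 1.10e-06). Zyx stood at 5.21, 5.02 and 5.34 in knockout Sertoli and 5.41, 5.29 and 5.58 in control Sertoli fractions, against 2.13, 2.73 and 2.92 in knockout germ and 1.87, 1.76 and 1.90 in control germ fractions. All 4 groups of Zyx but the 2 Sertoli groups were free of overlap, and the difference in controls was 3.58 ± 0.21 (adjusted p 3.80e-08). Afdn, the actin-binding partner of nectins, stood at -7.46, -8.17 and -8.74 in knockout Sertoli and -7.77, -8.75 and -7.69 in control Sertoli fractions, against -3.86, -4.98 and -4.15 in knockout germ and -5.16, -4.41 and -4.02 in control germ fractions. None of the 6 Sertoli arrays was well above background for Afdn, so its level there is only bounded. The bound lifts each Sertoli array to the dimmest signal well above background on that array, where Afdn itself was dimmer, and sets the mean of the lifted values against the germ mean. With that signal taken as the limit of detection, the Sertoli fraction had at least 5.75-fold less Afdn than the germ fraction in knockout mice. In control mice it had at least 3.99-fold less. The bound itself was not tested. The limma fit to the measured signals, dim ones included, gave -3.79 in knockout mice (adjusted p 1.23e-05) and -3.54 in control mice (adjusted p 2.11e-05). Under normexp background correction the control difference was 0.43 and the knockout difference -1.37 (adjusted p 0.165).

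Upstream sequences of Vcl, Zyx and Afdn are shown because Vcl and Zyx, on the Sertoli side by the probe used, hold the motif matches found. Afdn, with Espn, is lower there. Whether motifs follow the fractions was not tested. Afdn had a single promoter entry, whereas Espn had 3, none of them with a match. The sequences come from RefSeq on GRCm38.p6 and run 250 bases up to the gene start, 5′ to 3′. The search covered 11 promoter entries for 7 of the 10 genes. No entry was found for Eps8 and Pkp2, and Ctnna1 was not searched. Capitals mark matches, on either strand, to the CArG box of serum response factor, the TEAD site GGAATG and the AP-1 site TGACTCA. The Vcl stretch is chr14:20929148-20929397 (+ strand), with a CArG box starting at -227 and a TEAD site at -143 from the gene start. That of Zyx is chr6:42349578-42349827 (+ strand), with an AP-1 match on the other strand at -121. The Afdn stretch is chr17:13760291-13760540 (+ strand), and these letters are not in it. Among 32851 RefSeq promoter windows of this length, 1.47% held the CArG box, 12.6% the TEAD site and 4.46% the AP-1 site. Of the 7 genes only Vcl and Zyx held any of the 3 motifs. Actr3, Ctnnb1 and Ctnnd1, which were also higher in the Sertoli fraction, held none.
Vcl: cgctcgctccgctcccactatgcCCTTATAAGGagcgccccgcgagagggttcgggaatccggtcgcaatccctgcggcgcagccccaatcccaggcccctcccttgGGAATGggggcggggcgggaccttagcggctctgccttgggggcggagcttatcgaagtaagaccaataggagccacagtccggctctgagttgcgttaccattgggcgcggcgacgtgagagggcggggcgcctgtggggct
Zyx: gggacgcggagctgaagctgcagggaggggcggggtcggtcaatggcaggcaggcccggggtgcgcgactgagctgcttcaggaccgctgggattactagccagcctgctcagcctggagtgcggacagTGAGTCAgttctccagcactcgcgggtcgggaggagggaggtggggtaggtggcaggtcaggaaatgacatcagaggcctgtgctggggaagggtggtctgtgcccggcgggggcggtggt
Afdn: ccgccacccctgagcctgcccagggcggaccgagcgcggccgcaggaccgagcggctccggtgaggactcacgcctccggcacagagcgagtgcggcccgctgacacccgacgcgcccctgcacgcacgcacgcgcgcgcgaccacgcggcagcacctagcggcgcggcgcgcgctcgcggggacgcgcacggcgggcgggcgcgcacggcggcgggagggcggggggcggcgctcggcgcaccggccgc

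The catenins link cadherins to actin, with Ctnna1 encoding alpha-catenin, Ctnnb1 beta-catenin and Ctnnd1 p120-catenin. Ctnna1 stood at 5.08, 5.25 and 4.93 in knockout Sertoli and 5.18, 5.15 and 4.84 in control Sertoli fractions, against 2.31 and 2.90 in knockout germ and 2.28, 1.94 and 1.89 in control germ fractions. The spot of the knockout germ array of mouse 72 was an outlier by the scanner software, so that group has 2 arrays for Ctnna1. Ctnnb1 stood at 3.45, 3.43 and 3.44 in knockout Sertoli and 3.38, 3.40 and 2.86 in control Sertoli fractions, against 1.09, 1.5 and 1.28 in knockout germ and 0.86, 1.11 and 0.95 in control germ fractions. Ctnnd1 stood at 3.37, 3.58 and 3.08 in knockout Sertoli and 3.52, 3.45 and 3.21 in control Sertoli fractions, against 1.24, 0.98 and 1.42 in knockout germ and 0.72, 1.36 and 1.22 in control germ fractions. For each catenin all Sertoli arrays were above all germ arrays, by 3.02 ± 0.21 (Ctnna1), 2.24 ± 0.19 (Ctnnb1) and 2.29 ± 0.22 (Ctnnd1) in controls, with adjusted p of 4.07e-07, 7.73e-07 and 2.27e-06. Pkp2, the plakophilin that anchors desmosomal cadherins, stood at 1.09, 1.29 and 1.37 in knockout Sertoli and 1.56, 2.04 and 1.35 in control Sertoli fractions, against -2.35, -1.87 and -2.10 in knockout germ and -1.66, -2.26 and -2.27 in control germ fractions. Its fractions did not overlap, and the difference in controls was 3.72 ± 0.24 (adjusted p 7.77e-08).

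In knockout mice all 10 genes were again called between the fractions, against 75% of all genes, 37.9% higher and 37.1% lower, and no member had overlapping fractions, where 80.9% of all genes had none. The limit given above for Afdn, kept only through the germ groups, holds here too. The differences were 4.28 ± 0.39 for Vcl, 4.24 ± 0.28 for Actr3, 3.36 ± 0.24 for Pkp2, 2.60 ± 0.21 for Zyx, 2.51 ± 0.22 for Eps8, 2.48 ± 0.24 for Ctnna1, 2.15 ± 0.19 for Ctnnb1, 2.13 ± 0.22 for Ctnnd1 and -4.59 ± 0.33 for Espn. The same 8 genes were thus higher and Espn and Afdn lower in the Sertoli fraction of both genotypes. These directions held on every slide that measured them, each of the 3 slides holding 1 knockout and 1 control mouse with both fractions. Ctnna1 in knockout mice was measured on slides 1 and 2.

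**Figure D2:**
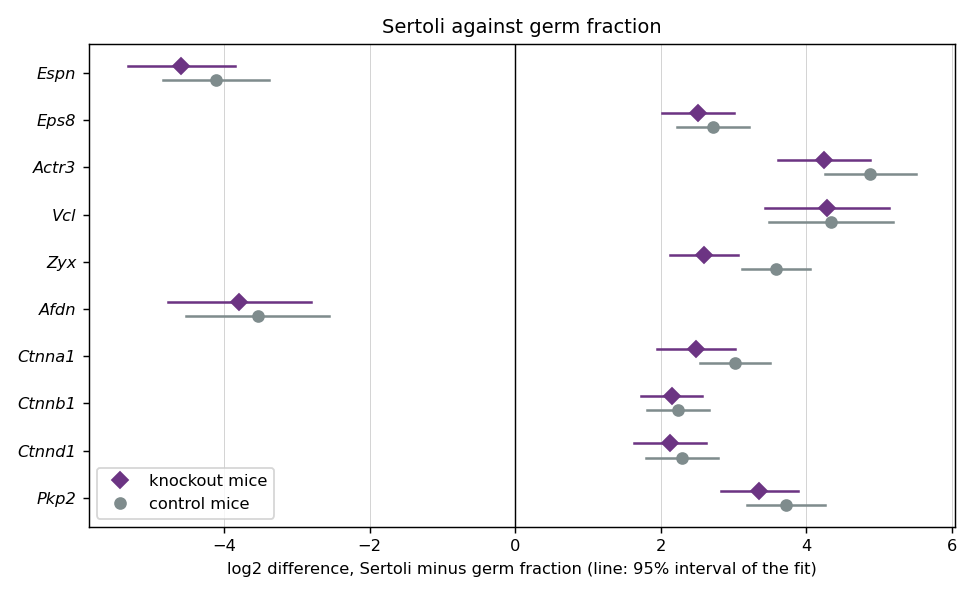
Difference between the Sertoli and the germ fraction (log2, Sertoli minus germ) in knockout mice (diamonds) and control mice (circles), with the 95% interval of the fit. Actr3 and Vcl lie farthest to the right and Espn farthest to the left; the points of Afdn use Sertoli signals not well above background, and its control difference turns to 0.43 under normexp background correction.

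Other cell types moved with this comparison, and their counts stand against 39.8% of all genes called higher and 36.5% called lower between the control fractions. All 7 peritubular myoid markers were called higher in control Sertoli than in control germ fractions (median 5.77), with mean list levels of 3.57 to 4.27 in knockout Sertoli and 4.09 to 4.82 in control Sertoli fractions, against -0.89 to 0.038 in knockout germ and -1.34 to -0.24 in control germ fractions. All 7 fibroblast markers were called higher too (median 6.67), at 4.08 to 4.59 in knockout Sertoli and 4.17 to 4.8 in control Sertoli fractions, against -2.11 to -1.83 in knockout germ and -2.81 to -2.54 in control germ fractions. Other somatic lists were mixed in the same control comparison. Of 12 macrophage and leukocyte markers 3 were called higher and 6 lower (median -1.04), with 1 of the 12 not well above background on any control Sertoli array. Of 7 Leydig markers 2 were called higher and 2 lower (median -0.65), and of 8 endothelial markers 3 higher and 1 lower (median 0.60). All 11 spermatocyte, 10 round spermatid and 12 elongating spermatid markers were called lower in control Sertoli than in control germ fractions, with medians of -9.43, -8.81 and -9.60. Of these, 5 spermatocyte, 3 round spermatid and 1 elongating spermatid markers were not well above background on any control Sertoli array, so the medians rest in part on levels that are only bounded. Calls of these dim markers are in part built in, as for Afdn. The mean level of the 17 Sertoli markers ran from -0.93 to -0.50 in knockout Sertoli and -1.15 to -0.70 in control Sertoli fractions, against 1.06 to 1.15 in knockout germ and 0.58 to 0.73 in control germ fractions. The part of these cell types in the values of the linker genes was not tested. In bulk RNA, fewer cells of a type and less RNA per cell cannot be told apart.

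Espn, Eps8 and Vcl were each measured with 2 probes, and the others with 1. The second Espn probe stood at -3.61, -3.37 and -3.50 in knockout Sertoli and -2.81, -3.85 and -3.04 in control Sertoli fractions, against 0.91, 0.40 and 1.59 in knockout germ and 0.040, 0.55 and 1.29 in control germ fractions, which is close to the first array by array. The second Eps8 probe was dimmer, at -2.91, -2.83 and -2.63 in knockout Sertoli and -2.76, -2.59 and -2.77 in control Sertoli fractions, against -5.55, -4.73 and -5.06 in knockout germ and -5.16, -5.68 and -5.67 in control germ fractions. Both Eps8 probes were higher on every Sertoli array than on any germ array. The second Vcl probe did not separate the fractions, with -1.67, -1.59 and -1.23 in knockout Sertoli and -1.28, -2.24 and -1.35 in control Sertoli fractions, against -1.12, -1.19 and -1.46 in knockout germ and -1.30, -0.87 and -1.01 in control germ fractions. Its difference was -0.24 (adjusted p 0.434) in knockout and -0.56 ± 0.27 (adjusted p 0.0761) in control mice, and with the mean of both probes the Vcl difference was 2.02 in knockout and 1.89 in control mice. The rise of Vcl in the Sertoli fraction thus rests on 1 of its 2 probes.

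**Figure D3:**
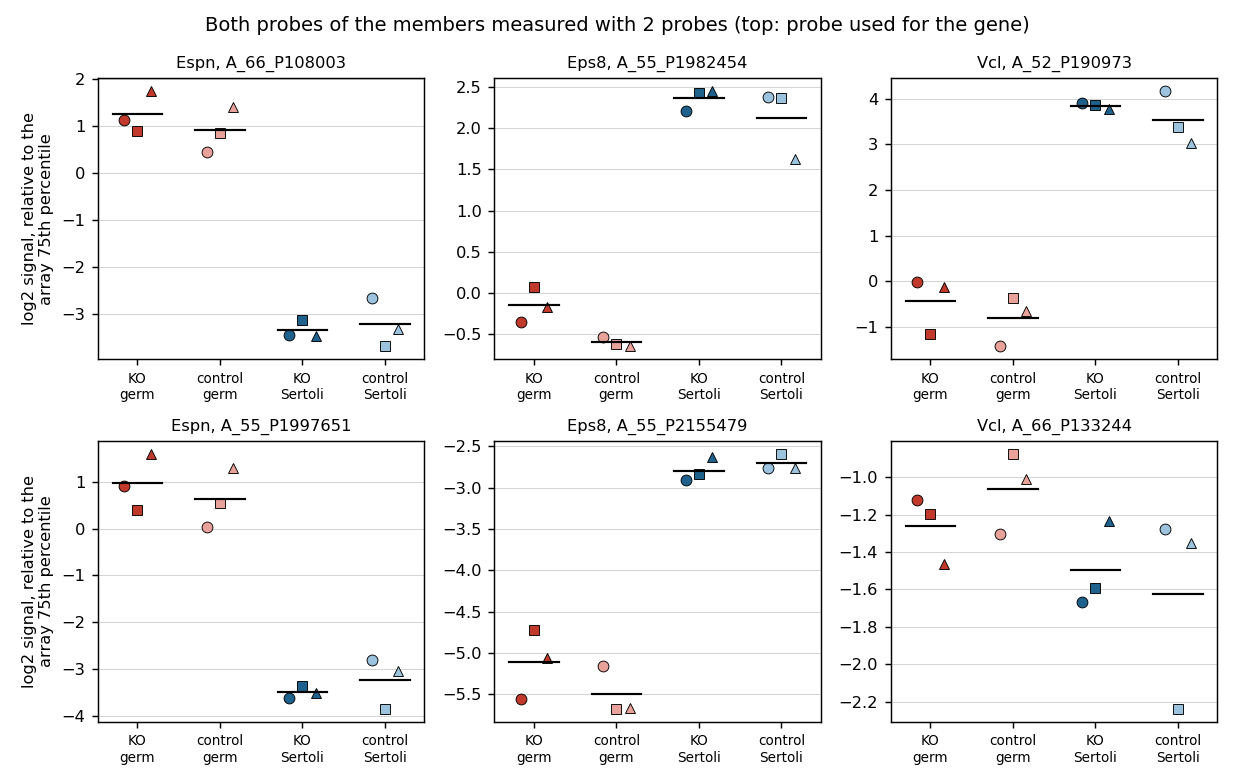
Both probes of Espn, Eps8 and Vcl on each array, as log2 signal relative to the 75th percentile of the array, with the probe used for the gene in the top row, symbols for slides and a bar at the group mean. The probes of Espn and Eps8 separate the fractions in the same direction, whereas the lower Vcl panel spans only -2.24 to -0.87 over all 12 arrays.

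Knockout and control germ fractions were compared next, as the title of the series asks about germ cell adhesion. None of the 10 genes passed the threshold, while 0.22% of all genes did (55 genes, 54 of them higher, which is 0.216% of all). By the probe used for each gene, the levels of 9 genes averaged higher in the knockout, from 0.11 (Ctnnd1) to 0.75 (Zyx). Of all genes 45.5% were above 0, and the median was 0.36 over the members and -0.035 over all genes. Vcl is among the 9 only by the probe used, and its second probe had -0.20 ± 0.27. At an unadjusted p under 0.05 there were 2 genes, Zyx and Ctnna1, against 7.34% of all genes. The count of 55 grew to 130 when mouse 120 was left out, and shrank to 30 when mouse 74, to 4 when mouse 99 and to 3 when mouse 86, 72 or 73 was.

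Zyx had the smallest p. Its 3 knockout germ arrays (2.13, 2.73 and 2.92) were all above the 3 control germ arrays (1.87, 1.76 and 1.90), with means of 2.59 ± 0.41 in knockout and 1.85 ± 0.072 in control germ fractions (SD, n = 3 each). The difference was 0.75 ± 0.21 (95% interval 0.28 to 1.22, p 0.00519, adjusted p 0.273), and 5.18% of all genes were at least as far in that direction. It measured 0.26, 0.97 and 1.02 on slides 1, 2 and 3, and with slide as a block the adjusted p was 0.236. Without mouse 99 the Zyx difference was 0.76 (adjusted p 0.616), and without the 2 mice titled het 0.72 (adjusted p 0.313). Ctnna1 differed by 0.57 ± 0.24 (p 0.0403, adjusted p 0.631, 2 knockout arrays) and Eps8 by 0.45 ± 0.22 (adjusted p 0.751). By the probe used for each gene, Zyx, Ctnna1 and Eps8 were the 3 genes without overlap between knockout and control germ arrays. Of all genes 15.7% had no overlap, and 6.58% had none with the knockout higher. The second Eps8 probe did overlap, with -5.55, -4.73 and -5.06 in knockout and -5.16, -5.68 and -5.67 in control germ fractions. For Ctnna1 the lack of overlap rests on 2 knockout arrays, with which it comes more easily than with 3. Its levels on slide 1 were 2.31 in knockout and 2.28 in control germ fractions, a difference of 0.030. The differences were 0.56 ± 0.28 for Actr3, 0.38 ± 0.39 for Vcl, 0.35 ± 0.33 for Espn, 0.31 ± 0.19 for Ctnnb1, 0.20 ± 0.45 for Afdn, 0.11 ± 0.22 for Ctnnd1 and -0.043 ± 0.24 for Pkp2, each with overlapping groups. The slides disagreed for several of these, with Vcl at 1.41, -0.80 and 0.53 and Actr3 at 1.29, -0.25 and 0.64 on slides 1, 2 and 3. The Actr3 difference was 0.22 without mouse 99 and 1.23 without the mice titled het. Espn, Eps8, Zyx, Ctnna1 and Ctnnb1 were higher in the knockout on every slide that measured them, Ctnna1 on slides 1 and 2 only. The margin for Espn on slide 2 was 0.048. For Eps8 this holds by the probe used, since its second probe was lower in the knockout on slide 1. The share of all genes higher on every slide was not counted. Ctnnd1 changes sign under array-median scaling (-0.0035), and among the 8-month mice Vcl stood at -0.13 and Afdn at -0.35.

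**Figure D4:**
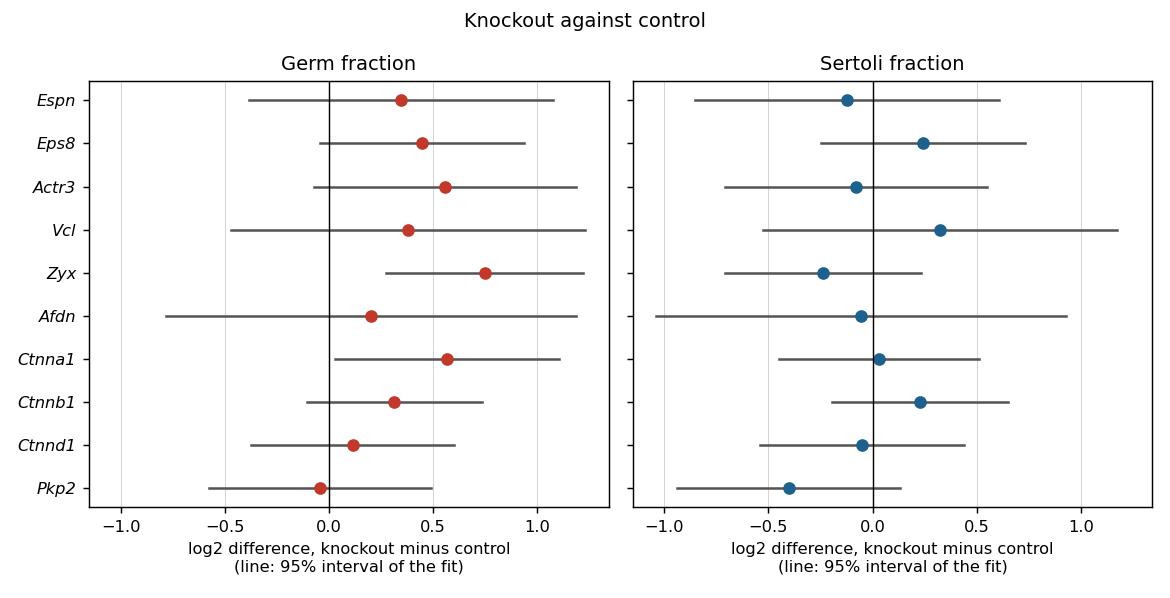
Difference between knockout and control mice (log2, knockout minus control) for each gene in the germ fraction (left) and the Sertoli fraction (right), with the 95% interval of the fit. In the germ fraction 9 points lie right of 0 with the intervals of Zyx and Ctnna1 clear of it. The Vcl points use its brighter probe, and the second gave -0.20 in the germ fraction. In the Sertoli fraction every interval spans 0, and the Afdn point rests on signals not well above background. Signs of small differences flip with the scaling (Ctnnd1 in the germ fraction, Actr3, Afdn and Ctnnd1 in the Sertoli fraction).

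Markers of somatic cells also stood higher in the knockout germ fraction, with 0 of the Sertoli, Leydig and macrophage markers past the limma threshold and 3, 3 and 7 of them at an unadjusted p under 0.05. The marker counts in this comparison stand against 45.5% of all genes above 0 and 7.34% at an unadjusted p under 0.05. All 17 Sertoli markers lay above 0 (median 0.51), with mean list levels of 1.06, 1.09 and 1.15 in knockout germ, against 0.58, 0.60 and 0.73 in control germ fractions. The 7 Leydig markers all lay above 0 (median 1.34), with mean levels of -0.064, 0.64 and 0.61 in knockout germ, against -0.94, -1.34 and -0.19 in control germ fractions. Of 12 macrophage and leukocyte markers 11 lay above 0 (median 1.04), with mean levels of -3.15, -2.16 and -2.49 in knockout germ, against -4.01, -3.69 and -3.34 in control germ fractions. The knockout arrays were above all control arrays for each of these 3 lists. Peritubular myoid and fibroblast markers lay above 0 for 6 of 7 genes each (medians 0.47 and 0.84), with 2 and 6 at an unadjusted p under 0.05. The fibroblast marker Pdgfra was called (1.25 ± 0.19, adjusted p 0.0359). Mean fibroblast levels did not overlap either, at -2.11 to -1.83 in knockout germ against -2.81 to -2.54 in control germ fractions. Those of the peritubular myoid list overlapped. The 8 endothelial markers all lay above 0 (median 0.32), with 0 of them at an unadjusted p under 0.05. Germ cell markers lay on the other side, with 9 of 11 spermatocyte, 9 of 10 round spermatid and 10 of 12 elongating spermatid markers below 0 (medians -0.11, -0.30 and -0.28), none called and 1, 0 and 1 of them at an unadjusted p under 0.05. Their mean levels did not overlap, at 1.48 to 1.55, 2.94 to 3.08 and 5.28 to 5.57 in knockout germ, against 1.66 to 1.69, 3.26 to 3.40 and 5.62 to 5.85 in control germ fractions. The 9 spermatogonia markers were 4 above and 5 below 0. The part of these cell types in the differences of Zyx, Eps8, Ctnna1 and the other linker genes was not tested.

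**Figure D5:**
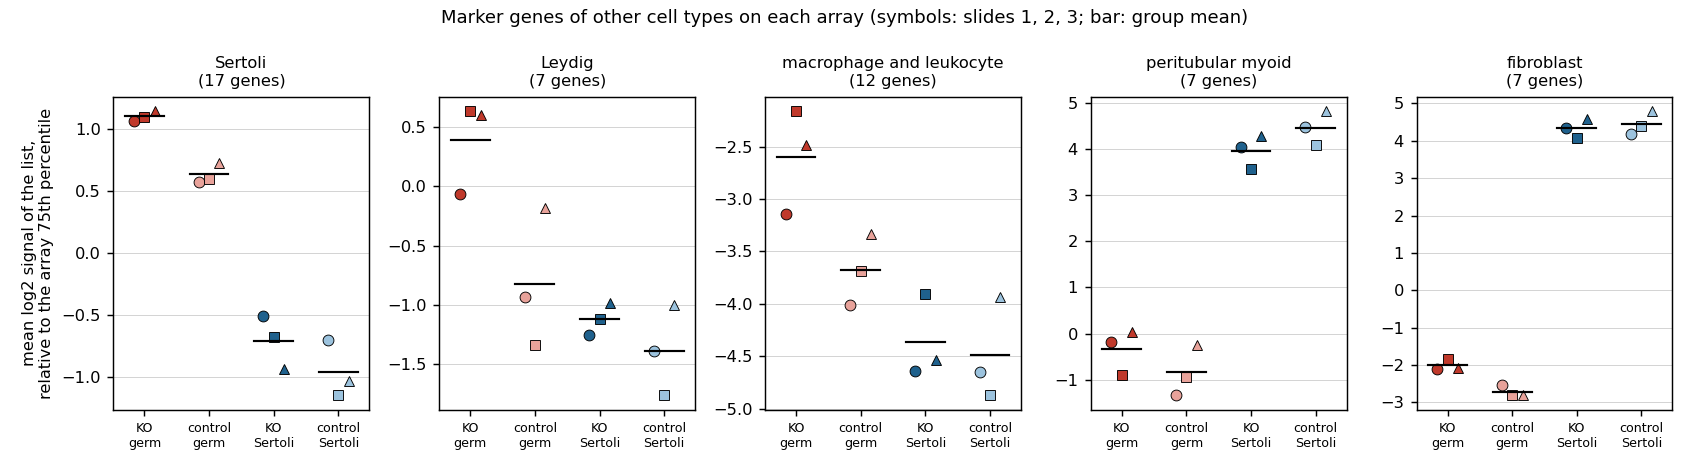
Mean log2 level of 5 marker lists on each array, relative to the 75th percentile of the array, with symbols for slides and a bar at the group mean. Knockout germ arrays lie above control germ arrays for the Sertoli, Leydig, macrophage and fibroblast lists. All Sertoli arrays lie above all germ arrays for the peritubular myoid and fibroblast lists.

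Between knockout and control Sertoli fractions no gene of the array passed the threshold with limma (0% of 25028 genes, with 756 or 3.02% at an unadjusted p under 0.05), and none of the 10 genes was under 0.05 before adjustment. The differences ran from -0.40 ± 0.24 (Pkp2) to 0.32 ± 0.39 (Vcl), with an adjusted p of 0.9997 for each and a median of -0.052 over the members and -0.10 over all genes. Of the members 4 lay above 0, as did 34.8% of all genes. Pkp2 was lower in the knockout on slides 1 and 2 (-0.47 and -0.76) and not on slide 3 (0.019). Zyx differed by -0.24 ± 0.21, with -0.20, -0.28 and -0.24 on the 3 slides. Ctnnb1 was the single gene whose knockout Sertoli arrays (3.45, 3.43 and 3.44) did not overlap the control Sertoli arrays (3.38, 3.40 and 2.86), where 6.72% of all genes had no overlap. The remaining differences were 0.24 for Eps8, 0.23 for Ctnnb1, 0.030 for Ctnna1, -0.051 for Ctnnd1, -0.054 for Afdn, -0.080 for Actr3 and -0.12 for Espn. The signs of Actr3, Afdn and Ctnnd1 turned positive under quantile normalization. None of the Sertoli arrays was well above background for Afdn, so its difference here sets dim signals against dim signals. Over the alternatives the Afdn difference ran from -1.74 to 0.36. Beside these values, all 12 elongating spermatid markers were below 0 (median -1.19, 7 at an unadjusted p under 0.05), with mean levels of -4.84, -4.87 and -4.73 in knockout Sertoli, against -4.50, -4.15 and -2.76 in control Sertoli fractions, without overlap. All 7 peritubular myoid markers were below 0 (median -0.40, 2 at an unadjusted p under 0.05), and 15 of 17 Sertoli markers above it (median 0.21, 1 at an unadjusted p under 0.05). Their part in the linker values was not tested.

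Whether the knockout difference itself differed between the fractions was tested with the interaction term, Sertoli minus germ. None of the 10 genes passed, against 0.00799% of all genes (2 genes), and at an unadjusted p under 0.05 there was 1, Zyx, against 4.57% of all genes. By the probe used for each gene, all 10 estimates were below 0, where 39.5% of all genes were above it. Their median was -0.31 against -0.092 over all genes. The second Vcl probe had 0.32 ± 0.38, and the Afdn estimate rests on Sertoli signals not well above background. Beside these values, 0 of 7 Leydig (median -0.95), 0 of 7 peritubular myoid (-0.96), 1 of 7 fibroblast (-1.13), 2 of 12 macrophage and leukocyte (-1.09), 2 of 12 elongating spermatid (-1.02) and 3 of 17 Sertoli markers (-0.27) lay above 0. So did 4 of 10 round spermatid (-0.28), 4 of 9 spermatogonia (-0.092), 6 of 11 spermatocyte (0.28) and 6 of 8 endothelial markers (0.098). None of these markers was called. Their part in the linker values was not tested. The linker estimates share the control and knockout arrays with the comparisons above. Zyx had -0.99 ± 0.30 (p 0.00778, adjusted p 0.798), followed by Actr3 with -0.64 ± 0.40 and Ctnna1 with -0.54 ± 0.32, and the smallest was Vcl with -0.055 ± 0.54.

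Genes that work with these linkers were read from 6 lists, each in the same fit. Their counts stand against 39.8% of all genes called higher and 36.5% called lower between the control fractions. Between knockout and control germ fractions they stand against 45.5% of all genes above 0 and 7.34% at an unadjusted p under 0.05. Of 20 genes of the Arp2/3 complex and its activators, 17 were called higher and 1 lower in control Sertoli than in control germ fractions (median 2.38), where 39.8% and 36.5% of all genes were. They included Arpc1b (4.39) and Actr2 (3.97), which are subunits of the complex, and Cyfip1 (3.85), of the WAVE regulatory complex, with Wasf3 the only gene called lower (-1.35). In the germ fraction none was called between knockout and control (3 at an unadjusted p under 0.05, against 7.34% of all genes), 15 of 20 lay above 0, against 45.5% of all genes, and the smallest p belonged to Arpc1b (0.79 ± 0.31, adjusted p 0.529) and the small GTPase Cdc42 (0.39 ± 0.16, adjusted p 0.588). Of 22 vinculin and zyxin partners, 19 were called higher and 0 lower in the control Sertoli fraction (median 2.88), against 39.8% and 36.5% of all genes, among them the zyxin relative Lpp (6.85), the integrin subunit Itgb1 (5.88) and the filamin-binding Fblim1 (5.70). Trip6, another zyxin relative, had 1.31 ± 0.27 between knockout and control germ fractions without passing (adjusted p 0.100, with 5 of the list at an unadjusted p under 0.05, against 7.34% of all genes, and none called), followed by the integrin subunit Itga6 (0.66, adjusted p 0.580).

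Of 32 actin bundlers, crosslinkers and barbed-end proteins, 18 were called higher and 9 lower in control Sertoli than in control germ fractions (median 0.90), where 39.8% of all genes were called higher and 36.5% lower. Msn, which ties actin to the membrane (7.15), and the crosslinker Actn1 (6.86) were on the Sertoli side. The capping protein subunit Capza3 (fitted difference -10.85) and the Eps8 relative Eps8l3 (-9.42) were on the germ side. So was the profilin Pfn3, at least 748-fold lower by the bound used for Afdn and not well above background on any control Sertoli array. The sizes for Capza3 and Eps8l3 are uncertain, since in control Sertoli fractions 1 array of 3 measured each of them above background. On the control Sertoli arrays 3 genes of the list, Pfn3 among them, were never well above background, and on the control germ arrays 1. Any calls of these genes are in part built in, as for Afdn. Lcp1, the leukocyte bundler L-plastin, was the only gene of the 6 lists called between knockout and control in either fraction. It was higher in knockout germ fractions by 2.29 ± 0.37 (adjusted p 0.0445, mean levels -1.61 in knockout and -3.91 in control germ fractions), next to the macrophage markers given above, and the call ended without mouse 86, 72, 99, 73 or 74.

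Of 17 catenin, plakophilin and desmosome genes tested of 22 listed, 7 were called higher and 7 lower in the control Sertoli fraction, near the 39.8% and 36.5% of all genes. Axin2 (4.40) and Gsk3b (3.08), of the complex that degrades beta-catenin, and the p120 relative Arvcf (3.31) led the higher genes. Ctnna3 (alpha-T-catenin, at least 19.7-fold), the desmosomal cadherin Dsg1a (at least 8.10-fold) and the plakophilin Pkp1 (at least 7.19-fold) were lower in the Sertoli fraction by the bound used for Afdn. None of them was well above background there. They were kept only through the germ groups, so any calls of theirs as lower are in part built in. Alpha-catulin (Ctnnal1, 0.73 ± 0.21, adjusted p 0.292) and the beta-catenin inhibitor Ctnnbip1 (0.31, adjusted p 0.915) had the smallest p between knockout and control germ fractions, with none of the list called and 1 at an unadjusted p under 0.05. Of 15 transmembrane partners 7 were called higher and 5 lower in the control Sertoli fraction, again near the 39.8% and 36.5% of all genes. Nectin4 and Cdh1 were not well above background on any Sertoli array and were kept only through the germ groups. Any calls of theirs as lower are in part built in. P-cadherin (Cdh3, 6.33), Nectin1 (5.30) and the coxsackie and adenovirus receptor Cxadr (3.83) were higher, and the immunoglobulin-family Cadm1 (-5.83), Nectin3 (-3.57), which is the spermatid-side nectin, and the laminin chain Lamb3 (-3.22) lower. Cdh1 (1.06 ± 0.29, adjusted p 0.253) and Lamc3 (0.69, adjusted p 0.434) had the smallest p between knockout and control germ fractions, with none called and 3 at an unadjusted p under 0.05. Of 21 kinase and motor genes 10 were called higher and 4 lower, against 39.8% and 36.5% of all genes, with Rock2 (4.61), Sh3kbp1 (3.97) and Csk (3.46) higher and the testis kinases Tesk1 (-4.00) and Tesk2 (-3.16) and the phosphatase Inpp5k (-1.89) lower. The myosin Myo7a (0.46, adjusted p 0.441) and the adaptor Sh3kbp1 (-1.57, adjusted p 0.595) had the smallest p in the germ fraction, with none called and 2 at an unadjusted p under 0.05. No gene of the 6 lists was called between knockout and control Sertoli fractions or in the interaction.

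The likeness of expression patterns was measured as the root mean square difference of mean-centred log2 levels over the 12 arrays, among 15747 genes with a symbol. By this measure Eps8 was nearest to Clybl (0.14) and Ankrd46 (0.16), Actr3 to Nedd4 (0.20) and Tspan31 (0.21), and Espn to Defb19 (0.30) and Kif21a (0.34). Vcl was nearest to Ryk (0.17) and Cpne3 (0.21), Zyx to Zfp362 (0.14) and Rin2 (0.15), and Afdn to Pla2g6 (0.22) and Reep2 (0.23). Among the junction genes Ctnna1 was nearest to St3gal3 (0.073) and Tmem19 (0.097) over 11 arrays, Ctnnb1 to Edem3 (0.12) and Lifr (0.13), Ctnnd1 to Herc3 (0.094) and Klhl9 (0.15), and Pkp2 to Nr3c1 (0.12) and Errfi1 (0.13). Among the 10 genes themselves Eps8 and Ctnna1 were close (0.22), as were Vcl and Actr3 (0.35), and Espn and Afdn were 0.52 apart. The points are the same 12 arrays for every gene and share the difference between the fractions, so these distances are a description.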

How the data were processed

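RNA of Sertoli and germ fractions from 6 mice was measured on 12 Agilent 1-colour arrays, 4 on each of 3 slides. Per the file headers, Agilent Feature Extraction 10.7.3.1 read the images on a grid naming build mm9, and the deposited intensity is the processed signal, background-subtracted and detrended but not scaled between arrays. A second deposited table holds log2 values, with column medians of 8.29 and within each column the order of that array's processed signal, as after quantile normalization; limma is named in the submitters' processing notes. Groups follow the source names. Both fractions of a mouse come from 1 animal, so mouse numbers pair arrays; their deviations from group means correlated with r of -0.16 to 0.46.

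Control spots (1377) and outlier spots were left out, spots of a probe averaged, and the 75th percentile of each array subtracted on the log2 scale. Of 39429 probes, 26055 were named by accession through RefSeq (GRCm38.p6) and 30531, well above background on all 3 arrays of a group, were kept; the probe with the highest mean stood for its gene, without regard to group, which can hide disagreeing probes. Limma 3.58.1 (R 4.3.3) fitted 4 group means over all 12 arrays, with adjustment over 25028 genes and a threshold of 0.05, and was tested on simulated data. Alternatives changed the background correction (normexp with offset 50 on the median spot and background signals), scaling, probe filter, probe summary, slide or mouse block and mice included. Precision is limited by the number of arrays.

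The members, lists and naming rule (genes past the threshold or, failing that, the 2 with the smallest p per list, the 3 largest called differences per direction between control fractions, and the 2 nearest patterns per member) were chosen with earlier results of these data known. Not every gene this rule names is reported here.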

Additional observations from a re-analysis of the deposited data

Results flagged for a closer look

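For Zyx every knockout germ array lay above the control germ mean and every knockout Sertoli array below the control Sertoli mean. The difference of the knockout differences (Sertoli minus germ) was -0.99 ± 0.30 with p 0.00778, and did not pass the threshold over all genes (adjusted p 0.798). Over the alternatives it ran from -1.25, among the 8-month mice, to -0.72 under normexp background correction, and no alternative brought it past the threshold.

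Actr3 showed the same opposite placement, with knockout germ arrays at 0.15, -0.27 and 0.42 against a control germ mean of -0.46, and knockout Sertoli arrays at 4.36, 4.30 and 4.38 against a control Sertoli mean of 4.43. Its difference of differences was -0.64 ± 0.40 (p 0.142, adjusted p 0.999). Over the alternatives it ran from -1.27, without the mice titled het, to -0.30 among the 8-month mice, with -0.32 without mouse 99, and no alternative brought it past the threshold.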

How the results depend on the processing

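By the probe that stands for each gene, or the mean of its probes, all 10 members were called between the fractions of either genotype under the alternatives tried, except Afdn under normexp background correction, which leaves 9 called in each genotype and gives Afdn 0.43 in controls. With every probe kept apart, the second Vcl probe was not called (-0.24, adjusted p 0.434, in knockouts and -0.56, adjusted p 0.0761, in controls). No member was called in a knockout comparison or in the interaction under any alternative. With mouse as a replicate block no member call changed (Zyx between knockout and control germ fractions, adjusted p 0.277), and the count over all genes was 55 again.

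The count over all genes called between knockout and control germ fractions, 55, became 3 under normexp, 28 under array-median scaling and with no filter on dim probes, 1 with each fraction fitted alone, 110 with an intensity trend, and 1 among 8-month mice or without the mice titled het; leaving out each mouse gave 3 to 130. In the Sertoli fraction the count of 0 became 1 in the authors' table and 5 without the mice titled het, and leaving out each mouse gave 0 to 5. The interaction count of 2 became 0 under normexp, among 8-month mice and without the mice titled het, 1 under quantile normalization, array-median scaling and the authors' table, and 7 with a trend, and leaving out each mouse gave 0 to 3. The Lcp1 call in the germ fraction also ended under normexp, with no probe filter, with probes averaged or kept apart, with each fraction fitted alone, among 8-month mice and without the mice titled het. The cause was not tested; fewer arrays enter where mice are left out.

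Signs of small knockout differences turned. In the germ fraction Ctnnd1 was -0.0035 under array-median scaling, and among 8-month mice Vcl was -0.13, Afdn -0.35, Ctnnd1 -0.088 and Pkp2 0.28. Leaving out each mouse gave -0.11 to 0.53 for Afdn, -0.076 to 0.24 for Ctnnd1 and -0.16 to 0.16 for Pkp2. In the Sertoli fraction normexp gave 0.14 for Actr3 and 0.15 for Ctnnd1; quantile normalization gave Actr3 0.040, Afdn 0.35 and Ctnnd1 0.038; array-median scaling gave Afdn 0.011 and Ctnnd1 0.014; the authors' table gave Actr3 0.042, Afdn 0.36 and Ctnnd1 0.040. Among 8-month mice Espn was 0.20 and Ctnnd1 0.0020 there, and without the mice titled het Eps8 was -0.0093, Vcl -0.32 and Ctnna1 -0.093. Leaving out each mouse gave -0.077 to 0.11 for Ctnna1, -0.40 to 0.25 for Afdn, -0.17 to 0.080 for Ctnnd1, -0.36 to 0.15 for Espn, -0.15 to 0.014 for Actr3 and -0.0050 to 0.37 for Eps8. The median over all genes in the control fraction comparison was 0.21 as scaled, 0.85 under normexp, 0.44 under quantile normalization and 0.88 under array-median scaling; in knockouts the share of calls higher was 50.5% as scaled and 64.7% under array-median scaling. Signal over background limits Afdn in the Sertoli fraction.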
